A study of Mus musculus with 6 samples.

Results

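Chemokines are small secreted proteins that steer the migration of white blood cells, and they act through receptors that couple to inhibitory G proteins. They are sorted by the spacing of their first cysteines into the CXC, CC, CX3C and XC families, and the receptors are named after the family they bind. Some are made constantly by epithelium and stroma and place resident cells, while others are induced by inflammatory signals. The genes described here are the chemokine ligands and receptors of the mouse, chosen as every gene symbol that begins with Cxcl, Ccl, Cx3cl, Xcl, Cxcr, Ccr, Cx3cr or Xcr followed by a number. They were 57 of the 23366 gene symbols in the deposited table, 38 ligands and 19 receptors.

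RNA-seq libraries were made from epithelial cells of the submandibular gland, a major salivary gland, of adult mice (12 weeks). The p63 knockout (KO) and wild-type (WT) groups held 3 libraries each, and 1 WT library is marked C in its title. p63 is the product of Trp63 and controls transcription in basal cells of epithelia. The study concerned how p63 sustains progenitor cells of this gland through follistatin and activin signalling. The labels give neither the strain, the deleted exons, the cells in which the deletion was made, nor whether each library came from 1 mouse.

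Values are TPM, which correct for gene length and sum to 1000000 in each library, so the sequencing depth is unknown. Trp63 stood at 1.59, 0.816 and 1.76 TPM in KO libraries 1, 2 and 3, against 3.48, 1.85 and 3.68 TPM in WT libraries 1, 2 and 3 (adjusted p = 0.27, limma). Knockout library 3 stood apart, with 10634 genes at 1 TPM or more, against 11129 to 11235 in the other libraries. Its 50 most abundant genes held 80.3% of the TPM, against 69.2% to 75.9% in the others. Results that rest on this library are therefore also given without it.

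Of the 57 genes, 21 reached 1 TPM in at least 3 libraries and were tested, 16 ligands and 5 receptors. A further 27 were lower, and 9 were listed at 0 TPM in every library. The test was limma on log2(TPM + 1), with Benjamini-Hochberg adjustment over all 11268 genes that reached the same level. Fold changes are KO over WT on this scale, which understates the change of low genes. Of the 21 genes, 1 passed at an adjusted p of 0.05 as higher in KO libraries, the ligand Cxcl13, and 0 passed as lower. Of all genes tested, 0.071% passed as higher and 0.319% as lower.

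At an unadjusted p of 0.05, 8 of the 21 genes were lower and 1 higher, against 10.5% and 4.99% of all genes. The KO values lay wholly below the WT values for 9 of them and wholly above for 1, against 15.6% and 5.42% of all genes. Among these are Ccl2 and Xcl1, which entered the test through WT libraries alone. Of the 8 lower genes, only Cxcl16 and Cxcl12 reached 1 TPM in all 3 KO libraries. The others needed WT libraries to enter, which favours a lower call. Of the 19 tested genes with at least 1 TPM in a KO library, 6 were lower at an unadjusted p of 0.05. The share of all genes under this restriction was not computed. Cx3cr1 and Ccl12 among the 6 reached 1 TPM in only 1 KO library, so this count does not remove the limit. The median log2 fold change was -0.46 over the 21 genes and -0.46 over the ligands, beside 0.09 over all genes tested. Relative to the mean of the WT libraries, the 21 genes had medians of -0.50, -0.73 and -0.37 in KO libraries 1, 2 and 3, beside 0.27, 0.24 and -0.29 for all genes. The median was thus negative in each KO library, also in the 2 in which the median gene stood above the WT mean.

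**Figure D1:**
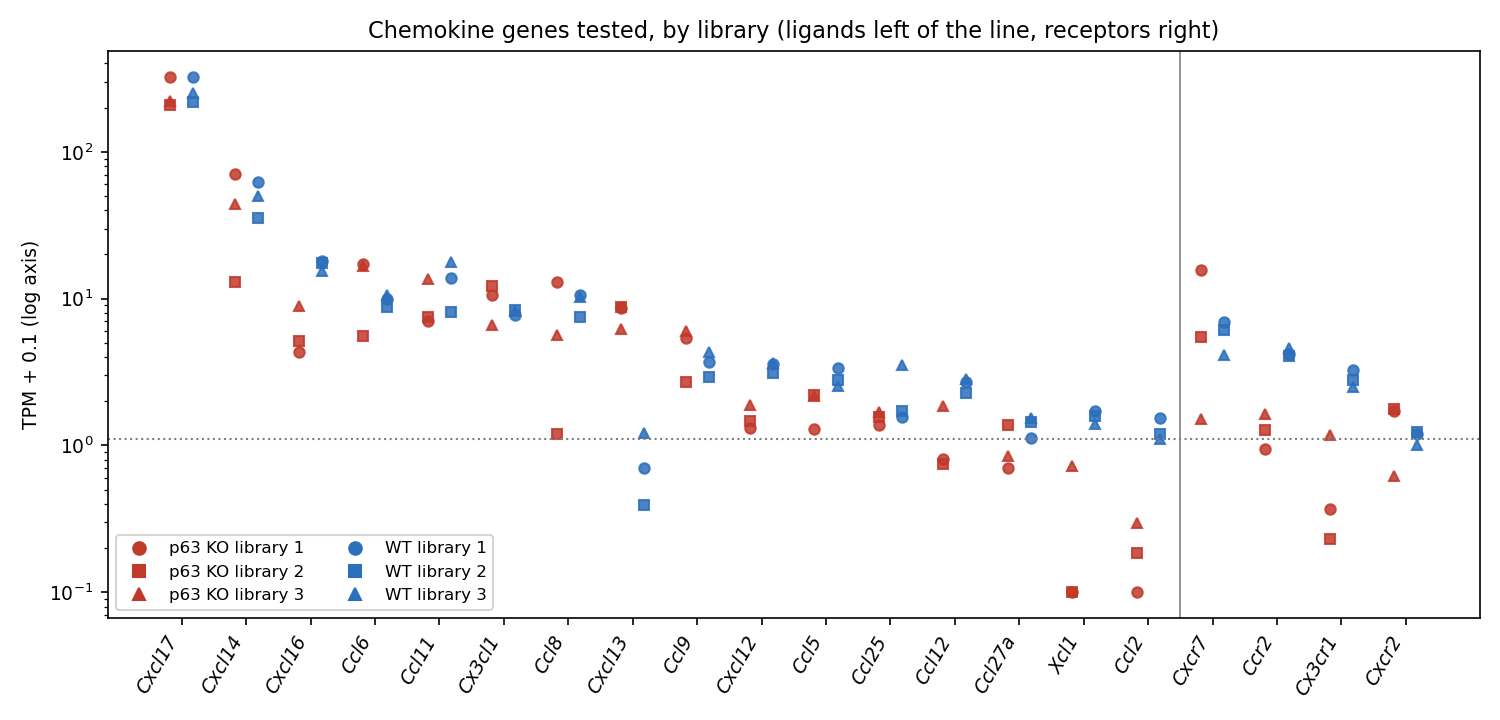
TPM + 0.1 of 20 chemokine genes tested, on a log axis, in each p63 KO library (red) and WT library (blue), with ligands left of the grey line and receptors right of it; the dotted line is 1 TPM. Cxcl17 and Cxcl14 are the most abundant, Cxcl13 is higher in every KO library, and Cxcl16, Cxcl12, Ccl5, Ccl12, Xcl1, Ccl2, Ccr2 and Cx3cr1 are lower in every KO library.

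Cxcl13, which draws B cells into follicles through the receptor Cxcr5, was the chemokine that rose. It stood at 8.59, 8.74 and 6.07 TPM in KO libraries 1, 2 and 3, against 0.598, 0.294 and 1.12 TPM in WT libraries. All KO libraries lay above all WT libraries, at 7.80 ± 1.5 TPM in KO libraries and 0.671 ± 0.418 TPM in WT libraries (SD, n = 3 each). It had a log2 fold change of 2.41 (SE 0.26, limma adjusted p = 0.019). Cxcl13 reached 1 TPM in 3 KO libraries and 1 WT library. It thus needed the KO libraries to enter the test, which favours a higher call. With no filter on low values, limma's adjusted p was 0.051. The exact two-sided permutation test gave p = 0.1, the smallest that 3 libraries against 3 allow. The call held without KO library 3 (log2 fold change 2.56, adjusted p = 0.00059). It was lost when any other single library was left out, KO 1 or 2 or WT 1, 2 or 3 (2.24 to 2.60, adjusted p 0.056 to 0.19).

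Its receptor gene Cxcr5 was at 0.241, 0.0798 and 0 TPM in KO libraries and at 0, 0.0261 and 0 TPM in WT libraries. The B cell gene Ms4a1, which encodes CD20, was at or below 0.0338 TPM in KO libraries and 0.158 TPM in WT libraries. Of 5 markers of lymph node stroma and follicular dendritic cells, Madcam1, Cr2 and Fcer2a stayed at or below 0.214 TPM in KO libraries and 0.0579 TPM in WT libraries. Ltbr and Mfge8, which many other cells express, were at 21.8 to 46.7 and 15.3 to 32.4 TPM in KO libraries and 24.0 to 32.5 and 31.1 to 51.4 TPM in WT libraries. The part of such cells in the Cxcl13 values was not tested.

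The promoter of Cxcl13 is shown because it belongs to the chemokine gene that passed the test. That of Ccr2 is shown as the receptor with the smallest p and that of Cxcl1 as the ligand with the widest spread among KO libraries on the log2(TPM + 1) scale (SD 2.18). Each is the 250 bases before the gene start, 5′ to 3′, from RefSeq's GRCm38.p6 build, on the plus strand. Cxcl13 lies at chr5:95956689-95956938, Ccr2 at chr9:124101933-124102182 and Cxcl1 at chr5:90890995-90891244. Capitals mark matches, on either strand, to a kappaB-like pattern (GGGNNNNNCC) or a TATA box (TATAAA).
Cxcl13: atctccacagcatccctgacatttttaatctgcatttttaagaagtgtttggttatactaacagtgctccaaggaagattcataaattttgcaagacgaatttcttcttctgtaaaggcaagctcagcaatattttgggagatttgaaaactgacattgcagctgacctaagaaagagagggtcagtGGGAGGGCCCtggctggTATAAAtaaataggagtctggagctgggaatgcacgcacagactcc
Ccr2: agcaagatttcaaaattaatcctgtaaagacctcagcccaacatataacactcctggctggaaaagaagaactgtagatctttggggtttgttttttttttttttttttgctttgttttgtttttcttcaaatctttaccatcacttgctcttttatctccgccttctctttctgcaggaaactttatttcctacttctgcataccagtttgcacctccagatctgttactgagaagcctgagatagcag
Cxcl1: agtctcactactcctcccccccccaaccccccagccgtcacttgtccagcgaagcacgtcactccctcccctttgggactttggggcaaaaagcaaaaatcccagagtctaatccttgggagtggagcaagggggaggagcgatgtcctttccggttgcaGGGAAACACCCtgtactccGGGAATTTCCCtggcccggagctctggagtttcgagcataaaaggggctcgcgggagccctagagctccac

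The kappaB-like letters matched at 1 place in Cxcl13, on both strands, and at overlapping places around 2 sites in Cxcl1. The TATA letters matched in Cxcl13, and neither pattern matched in Ccr2. The first pattern is in 45.8% and the second in 12.4% of all 32851 promoter windows of this length. Promoters were found for 15 of the 21 genes tested, and 6 of these genes held the kappaB-like pattern and 7 the TATA pattern. The last pattern searched, the paired CATG core that p53 family proteins bind (CATGNNNNNNCATG), is in 0.49% of all windows and was in 0 of the 15. These matches describe letters only.

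The most abundant chemokines were the epithelial ones, and their levels overlapped between the groups. Cxcl17, a chemokine of mucosal epithelia, stood at 326, 208 and 223 TPM in KO libraries and 324, 220 and 252 TPM in WT libraries. It made up 65.4% to 69.0% of all chemokine ligand TPM in KO libraries and 64.3% to 68.8% in WT libraries. It had a log2 fold change of -0.08 (SE 0.25, adjusted p = 0.87). Cxcl14, which resting epithelia make without stimulation, stood at 70.0, 12.8 and 44.2 TPM in KO libraries and 62.2, 35.3 and 49.95 TPM in WT libraries. Knockout library 2 was the lowest of all, KO library 1 the highest, and the log2 fold change was -0.46 (SE 0.56, adjusted p = 0.67). The sum over all 38 ligands was 372 ± 90.4 TPM in KO libraries and 397 ± 72.0 TPM in WT libraries. Without Cxcl17 and Cxcl14 it was 77.7 ± 3.36 TPM in KO libraries and 82.4 ± 9.35 TPM in WT libraries (SD, n = 3 each). This smaller sum includes Cxcl13 and Cxcl1. Of these, Cxcl1 stood at 4.92, 29.4 and 0.495 TPM in KO libraries and at or below 0.610 TPM in WT libraries.

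Of the CXC ligands tested, Cxcl16 and Cxcl12 were below the WT range in all KO libraries, but neither passed over all genes. In bulk RNA, fewer cells of a type and less RNA per cell cannot be told apart. Cxcl16, a membrane-bound ligand that also takes up oxidised lipoprotein, stood at 4.23, 5.06 and 8.77 TPM in KO libraries, against 17.9, 17.4 and 15.3 TPM in WT libraries. The highest KO library, library 3, still lay below the lowest WT library. It had a log2 fold change of -1.40 (SE 0.28, adjusted p = 0.077), and -1.67 without KO library 3 (adjusted p = 0.00059). Its receptor gene Cxcr6 was at 0.133, 0.184 and 0.0828 TPM in KO libraries and 0.428, 0.685 and 0.688 TPM in WT libraries, under the level for testing.

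Cxcl12, a stromal chemokine that retains stem cells and lymphocytes in their niches, stood at 1.22, 1.38 and 1.79 TPM in KO libraries, against 3.51, 3.03 and 3.52 TPM in WT libraries. The groups did not overlap (log2 fold change -0.83, SE 0.19, adjusted p = 0.10). Without KO library 3 the adjusted p was 0.0038 at -0.92. Its signalling receptor gene Cxcr4 was at 4.04, 1.61 and 0.259 TPM in KO libraries and 0.447, 0.565 and 0.808 TPM in WT libraries. Cxcr7, the older symbol of the atypical receptor Ackr3 that removes CXCL12, was the most abundant receptor. It stood at 15.6, 5.37 and 1.42 TPM in KO libraries and 6.79, 6.01 and 4.0 TPM in WT libraries (log2 fold change -0.03, SE 0.63, adjusted p = 0.98). For both receptors KO library 1 was the highest of all libraries and KO library 3 the lowest, so the KO group spread around the WT range.

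**Figure D2:**
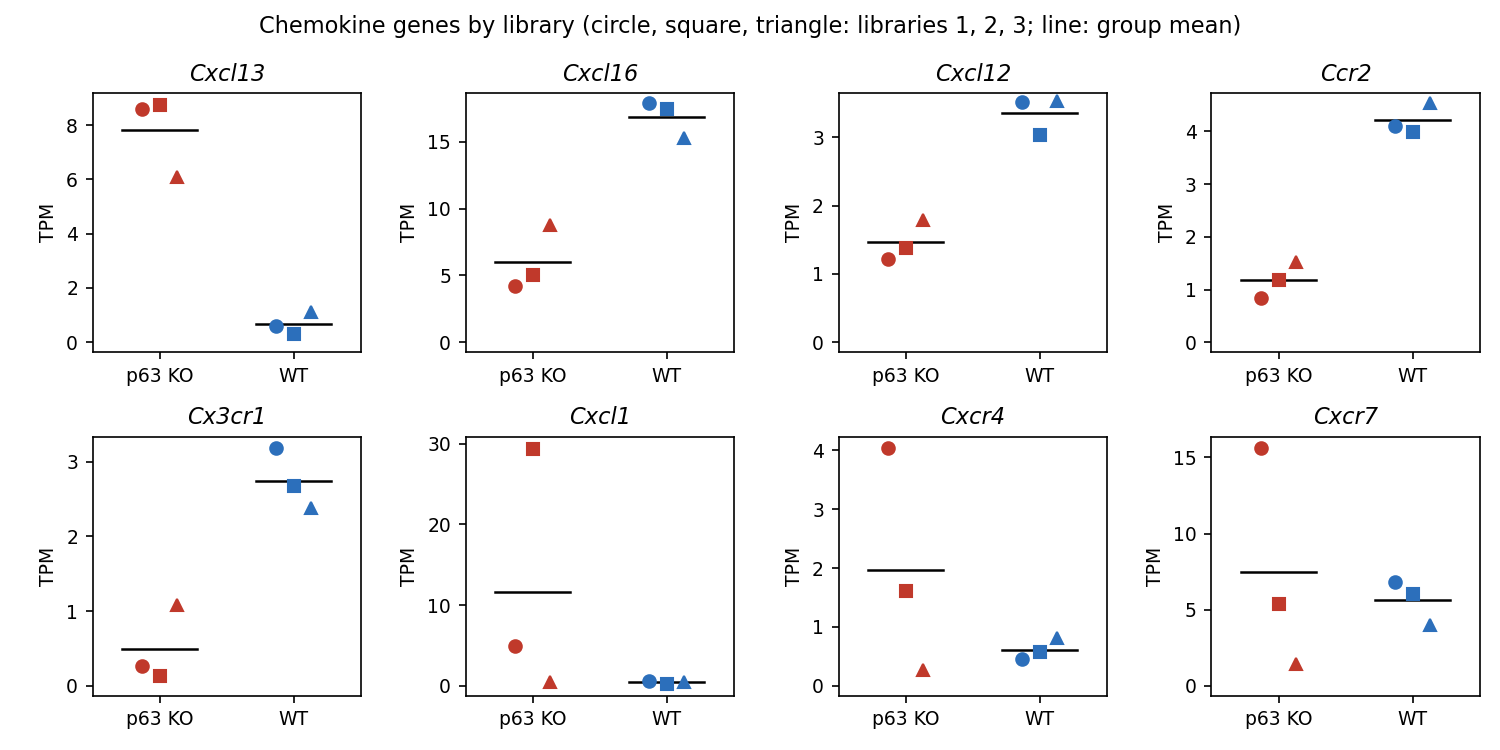
TPM of 8 chemokine genes in each p63 KO library (red) and WT library (blue), with symbols for libraries 1 to 3 and a line at the group mean. Cxcl13 is higher and Cxcl16, Cxcl12, Ccr2 and Cx3cr1 are lower in every KO library, while Cxcl1, Cxcr4 and Cxcr7 spread widely within the KO group.

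Ligands of the monocyte receptor Ccr2 were low throughout and below the WT range in KO libraries. Ccl2, the main attractant of monocytes, stood at 0, 0.0863 and 0.194 TPM in KO libraries, against 1.44, 1.1 and 1.01 TPM in WT libraries. All WT libraries lay above all KO libraries, with a log2 fold change of -0.996 (SE 0.16, adjusted p = 0.056). Ccl12, a mouse ligand of the same receptor, stood at 0.707, 0.649 and 1.75 TPM in KO libraries, against 2.59, 2.17 and 2.73 TPM in WT libraries. Its groups did not overlap either (log2 fold change -0.82, SE 0.24, adjusted p = 0.18). Ccl7, another ligand, was at 0, 0.174 and 0 TPM in KO libraries and 0.580, 1.03 and 1.22 TPM in WT libraries, under the level for testing.

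The CC ligands Ccl8 and Ccl11 overlapped between the groups. Ccl8, which in the mouse acts on Ccr8, stood at 12.9, 1.09 and 5.52 TPM in KO libraries and 10.4, 7.35 and 10.2 TPM in WT libraries (adjusted p = 0.49). Ccl11, or eotaxin, an attractant of eosinophils, stood at 6.94, 7.45 and 13.4 TPM in KO libraries and 13.7, 8.02 and 17.6 TPM in WT libraries. It had a log2 fold change of -0.45 (SE 0.36, adjusted p = 0.51), with overlap of the groups. Ccl5, an attractant of T cells and monocytes, stood at 1.19, 2.1 and 2.07 TPM in KO libraries, against 3.27, 2.70 and 2.45 TPM in WT libraries. Its groups were apart, but its unadjusted p was 0.071.

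Ccl6 and Ccl9, rodent chemokines that act on Ccr1, had positive fold changes. Ccl6 stood at 17.2, 5.42 and 16.6 TPM in KO libraries and 9.92, 8.66 and 10.4 TPM in WT libraries (log2 fold change 0.26, SE 0.41, adjusted p = 0.75). Ccl9 stood at 5.33, 2.61 and 5.94 TPM in KO libraries and 3.58, 2.82 and 4.22 TPM in WT libraries (adjusted p = 0.64). For both genes KO library 2 lay below all WT libraries, and KO libraries 1 and 3 above them. The gut and thymus chemokine Ccl25 (log2 fold change -0.32, adjusted p = 0.53) and the skin chemokine Ccl27a (-0.29, adjusted p = 0.46) overlapped between the groups. Exons of these genes overlap those of Elavl1 and Il11ra1 on the other strand in the GENCODE M21 annotation, and the strand setting of the counting is not given. Reads from the shared stretch of each pair may therefore not have been told apart. The length of the shared stretches was not measured. The partners had log2 fold changes of -0.16 for Elavl1 (adjusted p = 0.77) and 0.04 for Il11ra1 (adjusted p = 0.94).

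Exons of Cxcl16, Xcl1 and Cx3cr1 also overlap genes on the other strand in that annotation. Reads from their shared stretches likewise may not have been told apart. The partner of Cx3cr1 was not analysed here. The partner of Cxcl16, Zmynd15, was at 0.451, 0.944 and 0.504 TPM in KO libraries and 0.992, 1.39 and 1.51 TPM in WT libraries. The partner of Xcl1, Gm20743, was at 0.159, 1.18 and 0.197 TPM in KO libraries and 0, 0.516 and 0.410 TPM in WT libraries. Xcl1 itself, a ligand made by natural killer and T cells, stood at 0, 0 and 0.624 TPM in KO libraries, against 1.62, 1.5 and 1.30 TPM in WT libraries. The groups did not overlap (log2 fold change -1.07, SE 0.22, adjusted p = 0.087). Its receptor gene Xcr1, a mark of cross-presenting dendritic cells, stayed at or below 0.113 TPM in KO libraries and 0.219 TPM in WT libraries.

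Among the receptors, Ccr2 and Cx3cr1 were below the WT range in every KO library, and both are known from cells of the monocyte and macrophage line. Ccr2 stood at 0.845, 1.18 and 1.53 TPM in KO libraries, against 4.10, 4.0 and 4.54 TPM in WT libraries. Its mean was 1.19 ± 0.342 TPM in KO libraries and 4.21 ± 0.287 TPM in WT libraries (SD, n = 3 each). It had a log2 fold change of -1.26 (SE 0.20, adjusted p = 0.058), so it did not pass over all genes. Without KO library 3 it was -1.38 (adjusted p = 0.0011).

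Cx3cr1, the fractalkine receptor of resident macrophages, stood at 0.269, 0.130 and 1.09 TPM in KO libraries, against 3.18, 2.67 and 2.39 TPM in WT libraries. Knockout library 3 was the highest of its group and still under every WT library (log2 fold change -1.37, SE 0.26, adjusted p = 0.069). Its ligand gene Cx3cl1, which encodes fractalkine, an adhesive chemokine anchored on epithelium and endothelium, did not share this pattern. It stood at 10.5, 12.0 and 6.48 TPM in KO libraries and 7.67, 8.24 and 8.18 TPM in WT libraries (log2 fold change 0.20, SE 0.26, adjusted p = 0.69). Without KO library 3, Cx3cl1 passed as higher, at 0.44 (adjusted p = 0.037), in a comparison where 33.8% of all genes passed as higher.

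Cxcr2, the neutrophil receptor, stood at 1.62, 1.67 and 0.515 TPM in KO libraries and 1.1, 1.14 and 0.909 TPM in WT libraries, with overlap (adjusted p = 0.84). The sum over all 19 receptors was 23.5, 12.1 and 8.11 TPM in KO libraries 1, 2 and 3, against 19.5, 20.1 and 18.02 TPM in WT libraries. In KO library 1, the highest, Cxcr7 alone held 15.6 of the 23.5 TPM.

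Without KO library 3, 8 of the 21 genes passed as lower, among them Cxcl16, Cx3cr1, Ccr2, Xcl1, Ccl12, Cxcl12 and Ccl2 (adjusted p 0.00059 to 0.0040). These were 38.1% of the genes tested, against 11.7% of all genes in the same fit. Ccl2 and Xcl1 among them entered the test through WT libraries alone, which favours a lower call. Of the 8 genes, only Cxcl16 and Cxcl12 reached 1 TPM in all 3 KO libraries. The others needed WT libraries to enter the test, so the same limit applies to them. Cxcl13 and Cx3cl1 passed as higher, which is 9.52%, against 33.8% of all genes. The same 8 genes passed as lower with array weights, against 11.9% of all genes. In that fit KO library 3 had a weight of 0.09 and the other libraries had weights of 0.763 to 2.76. The fit without that library compares 2 KO libraries with 3 WT libraries, and the median log2 fold change of all genes moved to 0.26 in it.

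**Figure D3:**
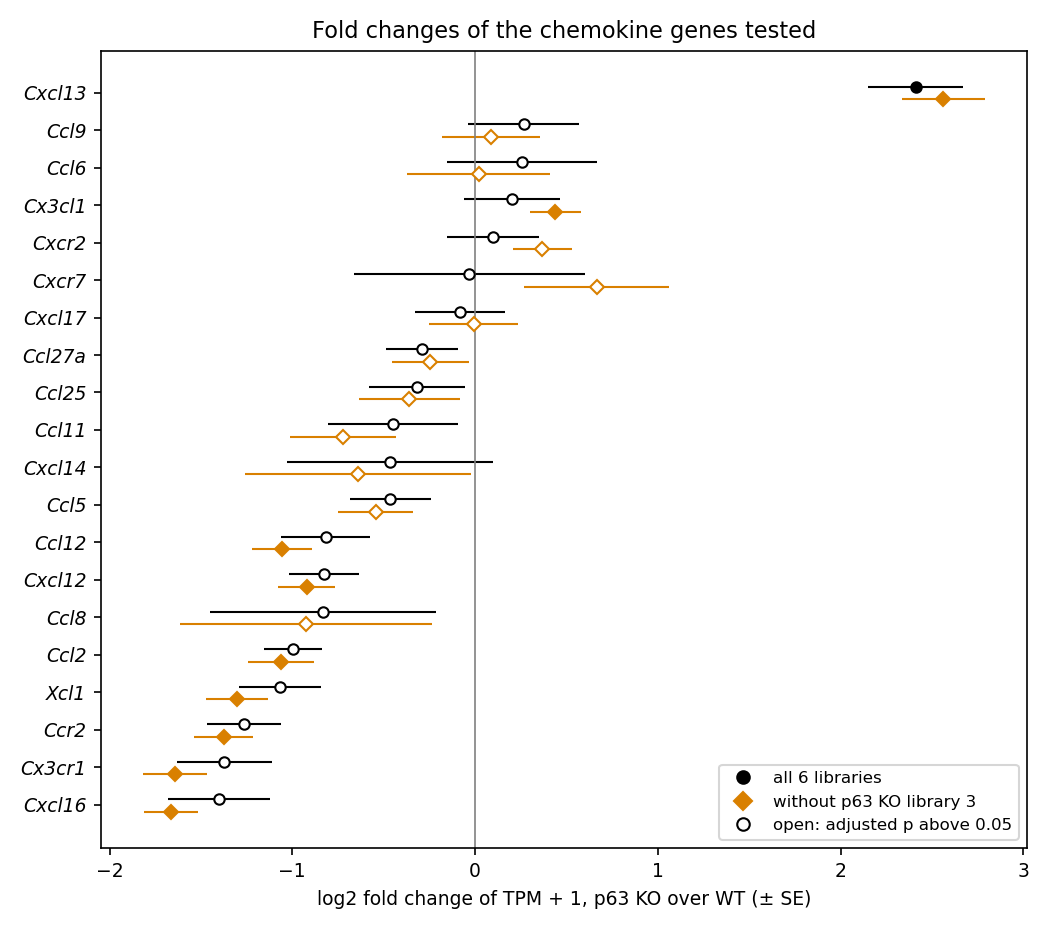
Log2 fold change of TPM + 1, p63 KO over WT, with its SE, for 20 chemokine genes tested, from all 6 libraries (black circles) and without KO library 3 (orange diamonds); filled symbols have an adjusted p at or under 0.05. Cxcl13 is filled in both fits. Filled only without KO library 3 are 7 genes at the lower end and, on the higher side, Cx3cl1. Of all genes in that fit, 11.7% passed as lower and 33.8% as higher.

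The 36 genes below the level for testing were 22 ligands and 14 receptors. Just outside it were Ccr1 and Cxcl10, with 2 libraries above 1 TPM and the next at 0.997 and 0.993 TPM, and just inside it was Ccl2, whose lowest WT library had 1.01 TPM. Of the 36, 7 reached 1 TPM in some library, namely Ccl7, Ccl17, Ccr1, Cxcl1, Cxcl2, Cxcl10 and Cxcr4. Cxcl1, a neutrophil attractant that acts on Cxcr2, was the highest of them, at 4.92, 29.4 and 0.495 TPM in KO libraries and 0.610, 0.216 and 0.515 TPM in WT libraries. Knockout libraries 1 and 2 stood above all WT libraries, while KO library 3 lay within their range. With no filter on low values, Cxcl1 had a log2 fold change of 2.17 (SE 0.99, limma adjusted p = 0.39). Of its relatives, Cxcl2 reached 1.63 TPM in KO library 1 and stayed at or below 0.0642 TPM in the other KO libraries and 0.0631 TPM in WT libraries.

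Cxcl10 and Cxcl9, ligands that interferon gamma induces, lay below the WT range in every KO library. Cxcl10 stood at 0.115, 0.695 and 0.427 TPM in KO libraries, against 1.05, 0.993 and 2.07 TPM in WT libraries. Cxcl9 stood at 0.0870, 0.0718 and 0 TPM in KO libraries, against 0.399, 0.705 and 0.448 TPM in WT libraries. Cxcl11, induced likewise, overlapped between the groups, at or below 0.173 TPM in KO libraries and 0.0852 TPM in WT libraries. The T cell receptor gene of these ligands, Cxcr3, overlapped too, at or below 0.292 TPM in KO libraries and between 0.212 and 0.504 TPM in WT libraries. The KO values were wholly below WT for 8 of the 27 low genes, Cxcl9, Cxcl10, Ccl7, Ccl17, Ccl24, Ccr3, Cxcr6 and Xcr1, and wholly above for 1, Cxcl5, against 10.3% and 4.13% of all 6869 genes that were above 0 in some library and under the level for testing. When no filter was used, 0 of the 48 chemokine genes above 0 in some library passed limma's test (lowest adjusted p 0.051). At an unadjusted p of 0.05, 16 of them were lower and 1 higher, against 9.91% and 3.84% of all genes in that fit.

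Listed at 0 in every library were Ccl1, Ccl19, Ccl21a, Ccl21b, Ccl21c, Ccl26, Ccl27b, Ccl28 and Cxcr1. Ccl28 is a chemokine known from salivary and other mucosal epithelia. In all, 5229 gene symbols were listed at 0 throughout, among them the ribosomal protein gene Rpl26, so a 0 in this table can be a failed estimate. Ccl21a, Ccl21b and Ccl21c are near-identical copies, as are Ccl27a and Ccl27b, and reads shared among copies may have gone uncounted. Nothing is drawn from these values.

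Other genes of the chemokine pathway were read from lists that were chosen with earlier results of these data known. Of 2 chemokines with other symbols, Pf4, or platelet factor 4, stood at 2.36, 2.01 and 3.20 TPM in KO libraries, against 14.2, 7.55 and 11.4 TPM in WT libraries (log2 fold change -1.75, SE 0.28, adjusted p = 0.058). Of 6 atypical and related receptors 4 were tested and 0 passed. At an unadjusted p of 0.05, 1 was lower, against 10.5% of all genes. This receptor was Ccrl1, the older symbol of Ackr4, which removes the chemokines of the gut, thymus and lymph node. It reached the level for testing through WT libraries alone. It stood at 0.419, 0.330 and 0.0743 TPM in KO libraries, against 1.1, 1.26 and 1.62 TPM in WT libraries (adjusted p = 0.083). Ccrl2, which presents the attractant chemerin, stood at 9.40, 4.45 and 1.26 TPM in KO libraries and 2.80, 1.78 and 1.77 TPM in WT libraries (adjusted p = 0.48). As with Cxcr4 and Cxcr7, its order within KO libraries was library 1, 2, 3 from high to low.

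Of 48 genes that carry the receptor signal, 38 were tested, 0 passed, and 3 were lower and 0 higher at an unadjusted p of 0.05, against 10.5% and 4.99% of all genes. The share is no higher than that of all genes. The 3 were Rgs10, a brake on G protein signalling (log2 fold change -1.06, adjusted p = 0.12), Rac2, the Rac GTPase of white blood cells (-0.59, adjusted p = 0.22), and Arrb2, an arrestin (-0.63, adjusted p = 0.25). The median over the 38 was 0.13. Of 32 genes of inducing cytokines and NF-kB, 21 were tested, 0 passed, and 3 were higher and 1 lower at an unadjusted p of 0.05. Nfkbia, an NF-kB inhibitor and target, stood at 93.5, 62.5 and 26.5 TPM in KO libraries and 29.9, 22.8 and 25.7 TPM in WT libraries (adjusted p = 0.31). Nfkbib (adjusted p = 0.32) and the receptor gene Il17ra (adjusted p = 0.30) were the other 2 that were higher. Of 11 genes that shed, cut or present chemokines, 10 were tested and 0 passed. In limma's test over these pathway lists, 1 of the 10 tested was lower at an unadjusted p of 0.05, against 10.5% of all genes tested. It was Ext1, which builds heparan sulphate, at -0.64 (adjusted p = 0.26).

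Some markers of other cells were lower beside the lower chemokine genes. The 16 macrophage and dendritic cell markers summed to 229 to 347 TPM in KO libraries and 581 to 671 TPM in WT libraries. In WT libraries most of this sum came from the MHC class II antigen presentation genes and the lysozyme gene among them. Of the 14 markers tested, 8 were lower at an unadjusted p of 0.05, against 10.5% of all genes. Of the 14, 0 passed over all genes, and the median log2 fold change was -1.02. Csf1r, the receptor that macrophages need to survive, stood at 6.71, 5.15 and 6.71 TPM in KO libraries, against 14.8, 10.3 and 13.6 TPM in WT libraries (adjusted p = 0.12). Other macrophage genes overlapped between the groups, with log2 fold changes of 0.16 for the integrin gene Itgam, 0.06 for the mannose receptor gene Mrc1, and -0.13 and -0.25 for the complement genes C1qa and C1qb. The 8 fibroblast markers summed to 134 to 281 TPM in KO libraries and 285 to 365 TPM in WT libraries. Of these 1 passed as lower, against 0.319% of all genes, the fibrillar collagen gene Col3a1 (log2 fold change -3.05, SE 0.43, adjusted p = 0.044). Pdgfra, Pdgfrb, Dcn and Dpt overlapped between the groups. The part of these cells in the values of Ccr2, Cx3cr1, Ccl2, Ccl12, Cxcl16 and Cxcl12 was not tested.

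Neutrophil markers lay above the WT range in every KO library as a sum, but singly only S100a8 and S100a9 did. The 6 in the table summed to 3.22 to 15.4 TPM in KO libraries and 1.89 to 2.14 TPM in WT libraries. S100a8, a calcium-binding protein gene of neutrophils that stressed epithelium also expresses, stood at 2.90, 7.45 and 1.2 TPM in KO libraries and 0.886, 0.697 and 0 TPM in WT libraries (adjusted p = 0.22). Knockout library 2 was the highest for S100a8 and for Cxcl1, and KO library 3 the lowest of the KO libraries for both. Csf3r, the receptor gene for the growth factor of neutrophils, was at or below 0.344 TPM in KO libraries and 0.523 TPM in WT libraries. Like Csf3r, Retnlg and Mpo overlapped between the groups, and Elane was at 0 TPM in every library. Both S100a8 and S100a9, the neutrophil markers tested, reached the level for testing through KO libraries alone. The part of neutrophils in the Cxcl1 values was not tested. None of the 6 T cell markers in the table reached the level for testing, with sums of 0.523 to 1.24 TPM in KO libraries and 1.04 to 2.77 TPM in WT libraries. The B and plasma cell markers summed to 7.04 to 33.6 TPM in KO libraries and 22.0 to 80.8 TPM in WT libraries, with overlap of the groups. The salivary epithelial markers, 7 of 7 tested, summed to 859 to 1857 TPM in KO libraries and 1141 to 1345 TPM in WT libraries. Of these 0 passed, and 2 were lower at an unadjusted p of 0.05, against 10.5% of all genes. The 6 basal and myoepithelial markers, Trp63 among them, summed to 117 to 217 TPM in KO libraries and 341 to 439 TPM in WT libraries. Of these 2 passed as lower, against 0.319% of all genes. They were the keratin gene Krt14 (log2 fold change -1.97, adjusted p = 0.037) and the contractile gene Cnn1 (-1.73, adjusted p = 0.035). The granular duct markers summed to 6605 to 21579 TPM in KO libraries and 67143 to 80517 TPM in WT libraries. Of 4 tested, 1 passed as lower, against 0.319% of all genes, the growth factor gene Egf (-2.38, adjusted p = 0.044). The part of these cells in the chemokine values was not tested.

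**Figure D4:**
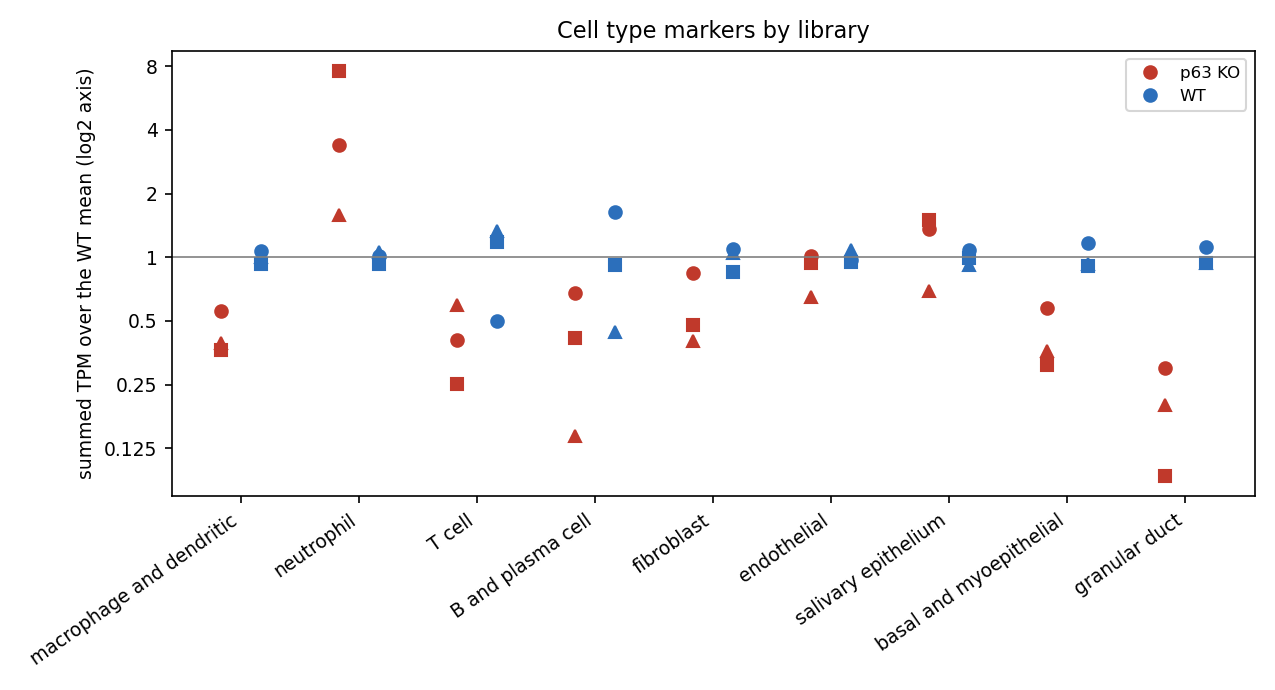
Summed TPM of marker lists in each library over the mean of WT libraries, on a log2 axis, for p63 knockout (red) and wild-type (blue) libraries. Circles, squares and triangles are libraries 1, 2 and 3. Macrophage and dendritic, fibroblast, basal and myoepithelial, and granular duct sums are lower and neutrophil sums higher in every KO library. Salivary epithelial sums spread around 1. Of the fibroblast genes, Pdgfra, Pdgfrb, Dcn and Dpt singly overlapped between the groups. Of the neutrophil genes, only S100a8 and S100a9 were singly above the WT range in every KO library.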

How the data were processed

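RNA-seq values came from 6 libraries of mouse submandibular gland epithelial cells, 3 p63 knockout (KO) and 3 wild type (WT). The deposited values are TPM: per the labels, the authors divided raw counts by gene length and library size. The submitters' processing notes name the mm9 genome, featureCounts 1.5.1, DESeq2 1.20.0, Bowtie2 2.2.6 and TopHat2 2.1.1. Which annotation and strand setting were used is not given in the sources used here. TPM keeps no depth, so no counting interval or detection limit was computed.

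Groups came from the genotype label. Replicates were numbered within a group and pair nothing. Where nothing says that libraries came from separate mice, p-values measure the spread between these libraries. Genes with at least 1 TPM in 3 libraries were tested with limma 3.58.1 in R 4.3.3 on log2(TPM + 1), with a mean-variance trend, two-sided, adjusted by Benjamini-Hochberg over 11268 genes at a threshold of 0.05. The procedure was tested on simulated data. Members, lists and alternatives were chosen with earlier results of these data known. Values in every library are given for genes with an unadjusted p of 0.05 or less, for the 6 most abundant members tested, and for their partners. Other genes with such values, Cxcl1, Cxcl9, Cxcl10, Ccl7, Ccl8, Ccl9, Csf1r and S100a8 among them, were chosen after their values were seen. Pathway and marker genes are named by the smallest p within a list or as such examples. Some genes, 1 of the 21 tested among them, enter the counts and are not reported here by name. Promoters were from RefSeq (GRCm38.p6), whose build differs from that of the values. Figures used matplotlib 3.10.9. The alternatives were 2 other pseudocounts, 2 other filters, 3 other scalings, limma without trend, array weights, a block of libraries with neighbouring index numbers, and leaving out each library.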

Additional observations from a re-analysis of the deposited data

How the results depend on the processing

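The count of chemokine genes that passed as higher in KO libraries was 1 and that of those lower was 0. With no filter on low values 0 passed as higher (Cxcl13 at an adjusted p of 0.051). In that fit the SE of Cxcl13 was 0.28, against 0.26, and more genes were tested. When 1 library was left out the count as higher ranged from 0 to 2 and the count as lower from 0 to 8, and 8 were lower with array weights. Both counts stayed as they were with the other pseudocounts, the 5 TPM filter, the 3 scalings and limma without trend. With the 5 TPM filter only 9 chemokine genes were tested, and of the 8 genes lower with array weights only Cxcl16 remained. With libraries of neighbouring index numbers as a block, 1 passed as higher and 0 as lower. Deviations of neighbouring libraries from their group means correlated at 0.17, 0.23 and 0.077 across genes, and each KO library correlated best with its neighbour, but the labels state no pairing. Cxcl13 kept its direction in all 16 alternatives and passed in 10 (log2 fold change 2.24 to 3.49, adjusted p 0.00045 to 0.19). Each of the 8 lower genes kept its direction in every alternative run and passed in 2 of 15 or 16. When 1 library was left out, the log2 fold change ranged from -0.28 to 0.071 for Cxcl17, turning positive without KO library 2 or WT library 1. It ranged from -0.97 to 0.21 for Cxcl14, positive without KO library 2, and from -0.0016 to 0.75 for Ccl6, negative without KO library 1 and at -0.17 with array weights. None of these 3 passed under any alternative, and the cause was not tested. The median of all genes moved by less than 0.1 (log2) under the 3 scalings. TPM gives no depth, so low values such as those of Ccl2 and Xcl1 carry an unknown counting error.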
